A study of Oncorhynchus mykiss with 16 samples.

Results

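Phosphoenolpyruvate carboxykinase (PEPCK), L-3-hydroxyacyl-CoA dehydrogenase (HADH) and ATP-citrate lyase are metabolic enzymes. On an array of cultured rainbow trout preadipocytes, 1 probe named for each was followed. The probes were picked out by their names, not by a threshold on their values, but with earlier results of these data known. In the files, 3 of the 60195 probes of the array carry the names phosphoenolpyruvate, L-3-hydroxyacyl-CoA and ATP-citrate. These names break off before the enzyme, so each was matched to its enzyme by that word. The name does not tell which isoform or gene copy the probe binds. Only 60 probes of the array carry a name made of words, and 19 more carry the number of a sequence record. Further probes for these enzymes could therefore not be found by name. Cells were isolated from the visceral fat of rainbow trout (Oncorhynchus mykiss), with the tissue of several fish pooled for each culture, and 4 such cultures, numbered 4, 8, 9 and 10 in the labels, were sampled at days 3, 8, 15 and 21. The study names the cells mesenchymal stem cells at day 3, proliferated cells at day 8, committed preadipocytes at day 15 and mature adipocytes at day 21. All cultures were kept in L-15 medium with fetal bovine serum. Once confluent at day 8, they received a differentiation medium that added insulin, IBMX, dexamethasone and a lipid mixture, and no culture without this medium was sampled at the later days. After day 8, time in culture and the differentiation medium therefore cannot be told apart. The step from day 3 to day 8 came before that medium. The fish were fasted for a day before their cells were isolated, and no strain or sex was given.

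The enzymes sit at different points of carbon metabolism in the fat cell. PEPCK makes phosphoenolpyruvate from oxaloacetate, a step of gluconeogenesis that in mammalian adipocytes also feeds glyceroneogenesis, the synthesis of the glycerol phosphate on which triglycerides are built. HADH is a dehydrogenase of the mitochondrial beta-oxidation spiral, in which fatty acids are shortened to acetyl-CoA. ATP-citrate lyase works in the opposite direction, splitting citrate in the cytosol to supply acetyl-CoA for fatty acid synthesis.

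Each of the 16 arrays held 1 culture on 1 day, so that n = 4 at each day. The values are the background-subtracted signal of each probe on a log2 scale, relative to the 75th percentile of its own array, which lay between 518 and 881 units. On an array, 65.5% to 80.5% of the spots were well above background and none was saturated. The limma tests covered 42541 probes, those with a day at which none of the 4 arrays lay near background, and all 3 probes were among them. A probe passed when its p, adjusted by Benjamini-Hochberg, was below 0.02, and was called when its ratio also exceeded 3, after the criteria of the study. Of 23 marker names for fat cells, fibroblasts, blood and vessel cells, 1 was found among the probe names, PPARg, the nuclear receptor that drives adipogenesis, and its probe was well above background on 0 of the 16 arrays. With so few marker names matched, the cell types named by the study were not checked here. In such bulk RNA, fewer expressing cells and less RNA per cell cannot be told apart.

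The probes for PEPCK and HADH rose over the culture and the probe for ATP-citrate lyase did not pass any test. Compared with the mean of days 3 and 8, the mean of days 15 and 21 was 1.81-fold for PEPCK (95% interval 1.40 to 2.34) and 2.36-fold for HADH (1.73 to 3.22), whereas the ratio was 0.871 for ATP-citrate lyase (0.592 to 1.28). Both rises were found in 4 of 4 cultures, as was a rise in 26.9% of the tested probes. The signal of the 3 probes differed in distance from the background, with spots at 11.9 to 46.7 times their local background for PEPCK, 71 to 460 times for HADH and 1.51 to 7.5 times for ATP-citrate lyase.

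**Figure D1:**
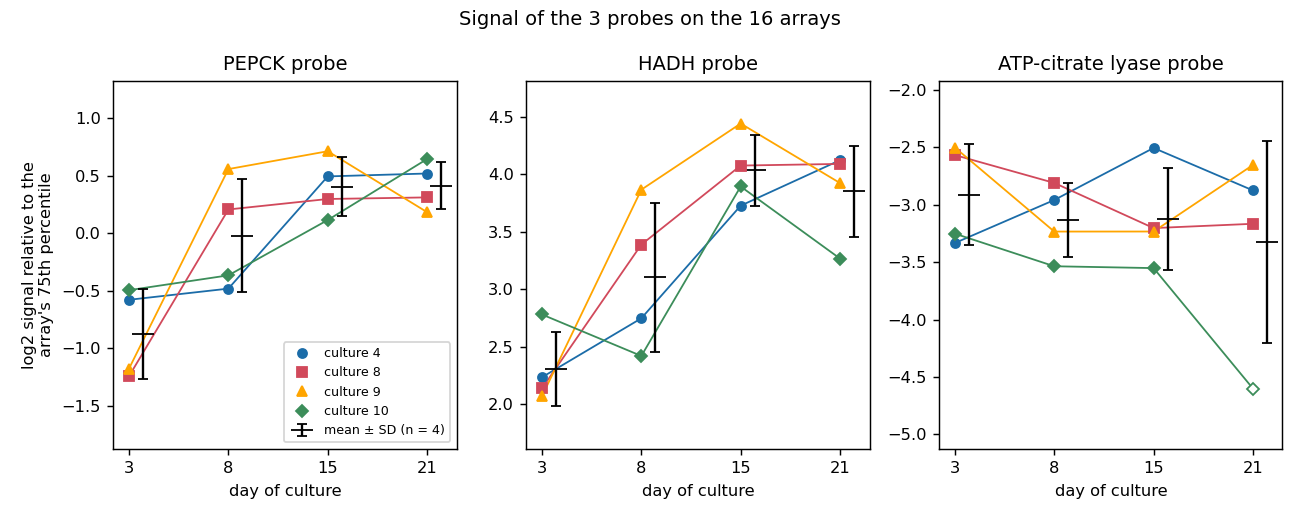
Log2 signal relative to the 75th percentile of the array (vertical axes, all spanning the same range) against the day of culture for the 3 probes; each line is 1 culture, black bars are the mean ± SD of 4 cultures, and the open symbol marks the spot that was not well above background. PEPCK climbs from a mean of -0.87 at day 3 to 0.41 at day 21 and HADH from 2.31 to 3.85, while the ATP-citrate lyase lines cross.

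The lowest values of the PEPCK probe were those of day 3. At that day the log2 values were -0.58, -1.24, -1.18 and -0.50 in cultures 4, 8, 9 and 10, with a mean of -0.87 ± 0.39 (SD, n = 4). At day 8 they were -0.48, 0.21, 0.56 and -0.37, a mean of -0.02 ± 0.49. Cultures 4 and 10 were still close to their day 3 values, and the gap between the highest array of day 3 and the lowest of day 8 was only that between -0.50 and -0.48. At day 15 the values were 0.49, 0.30, 0.71 and 0.11 (mean 0.40 ± 0.26), and at day 21 they were 0.52, 0.31, 0.18 and 0.65 (mean 0.41 ± 0.21). All 4 cultures were thus above 0 at both late days. The arrays of day 3 lay below those of days 8, 15 and 21 without overlap, whereas days 8, 15 and 21 overlapped with one another. Among all tested probes, 9.83% were higher without overlap at day 8 than at day 3, 15.1% at day 15 and 14.7% at day 21.

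Over the 4 days the PEPCK probe passed the test (limma, adjusted p = 0.00257), as 24.3% of the tested probes did, with a largest ratio between day means of 2.44. It was not called, because that ratio did not reach 3, and 8.84% of the tested probes were called. The study chose PEPCK for validation and reported higher levels at later days by qPCR and Western blot. Day 21 exceeded day 3 by 1.29 ± 0.25 (SE) on the log2 scale (limma, adjusted p = 0.00113), a direction and threshold shared by 11.9% of the tested probes. The mean of the late days exceeded that of the early days by 0.86 ± 0.17 (limma, adjusted p = 0.00171; 12.5% of the tested probes passed as higher). A difference of that sign in 4 of 4 cultures was seen in 26.9% of the tested probes. Day 8 exceeded day 3 by 0.85 ± 0.25, which missed the threshold (limma, adjusted p = 0.0288), and 5.15% of the tested probes passed as higher. Day 15 minus day 8 was 0.43, with an interval from -0.10 to 0.95 (limma, adjusted p = 0.365). From day 15 to day 21 the estimate was 0.01, with an interval from -0.52 to 0.54. Leaving out culture 8 took the change over the 4 days to an adjusted p of 0.0501 and day 21 against day 3 to 0.0208, and leaving out culture 9 took the former to 0.0231 (limma). The late against early difference passed without each of the 4 cultures.

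HADH gave the brightest of the 3 signals relative to its background and the largest change. At day 3 its log2 values were 2.24, 2.14, 2.07 and 2.78 in cultures 4, 8, 9 and 10 (mean 2.31 ± 0.32), and at day 8 they were 2.75, 3.39, 3.87 and 2.42 (mean 3.11 ± 0.65). Cultures 8 and 9 were clearly higher at day 8, culture 4 less so, and culture 10 was lower than at day 3, so that these days overlapped. At day 15 the values were 3.73, 4.08, 4.44 and 3.90 (mean 4.04 ± 0.31), and at day 21 they were 4.12, 4.09, 3.93 and 3.27 (mean 3.85 ± 0.40). Every array of days 15 and 21 lay above every array of day 3. Taken singly, 15.1% of the tested probes did so at day 15 and 14.7% at day 21. Culture 10 was the highest of the 4 at day 3 and the lowest at day 21, a difference of 0.49, against 1.89, 1.95 and 1.85 in cultures 4, 8 and 9.

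The change of HADH over the 4 days passed the test with a largest ratio between day means of 3.32 (limma, adjusted p = 0.00146). This probe was thus called, as 8.84% of the tested probes were. The call of HADH was lost without culture 8 (ratio 3.16, limma, adjusted p = 0.0388) and without culture 9, where the ratio was 2.86. Day 21 exceeded day 3 by 1.55 ± 0.30 on the log2 scale (limma, adjusted p = 0.00118), where 11.9% of the tested probes passed as higher. The late days exceeded the early days by 1.24 ± 0.21 (limma, adjusted p = 0.000477), where 12.5% of the tested probes passed as higher. Day 21 against day 3 had an adjusted p of 0.0268 (limma) without culture 8, while late against early passed without each of the 4 cultures. Neither single step before day 15 passed. Day 8 exceeded day 3 by 0.80 ± 0.30 (limma, adjusted p = 0.0792), a step that passed at 1.19 once culture 10 was left out (adjusted p = 0.0159), and day 15 exceeded day 8 by 0.93 ± 0.30 (adjusted p = 0.0878), a step at which 1.17% of the tested probes passed as higher. From day 15 to day 21 the estimate was -0.18, with an interval from -0.82 to 0.45. At that last step 0% of the tested probes passed as higher by limma. Of the 42541 tested, 1474 had an unadjusted limma p below 0.05 in either direction, fewer than the 1 in 20 set by chance alone. With culture as a block 0 passed as well, and 3124 were below 0.05, more than 1 in 20.

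ATP-citrate lyase had a weak signal of 22.4 to 141 units and no shared direction among the cultures. Its log2 values at day 3 were -3.33, -2.57, -2.50 and -3.25 in cultures 4, 8, 9 and 10 (mean -2.91 ± 0.44), and at day 8 they were -2.96, -2.81, -3.23 and -3.54 (mean -3.14 ± 0.32). At day 15 the values were -2.51, -3.20, -3.23 and -3.55 (mean -3.12 ± 0.44), and at day 21 they were -2.88, -3.17, -2.65 and -4.60 (mean -3.32 ± 0.88). The arrays of all 4 days overlapped. The spot of culture 10 at day 21 was the only one of the 16 that was not well above background, with a signal of 22.4 units and an error of 24.0% of the signal by the scanner software, against a median error of 11.3% for this probe.

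No comparison of the ATP-citrate lyase probe passed. The change over the 4 days had an adjusted p of 0.815 (limma) with a largest ratio between day means of 1.33. Late and early days differed by -0.20 ± 0.26 (limma, adjusted p = 0.582), with an interval from -0.76 to 0.36, and the difference was positive in culture 4 at 0.46 and negative in cultures 8, 9 and 10 at -0.50, -0.08 and -0.68. Without the array of culture 10 at day 21 the estimate was 0.01, and with a normexp background correction it was 0.08. The interval leaves room for a rise of 1.28-fold or a fall to 0.592-fold at these levels. With all arrays kept, the spread between cultures was also the widest of the 3 probes. The pooled SD within days was 0.56 on the log2 scale, more than in 77.9% of the tested probes. It was 0.35 for PEPCK and 0.44 for HADH, with a median of 0.36 over all tested probes. The SD of ATP-citrate lyase was 0.88 at day 21, which holds the spot not well above background, and 0.32 to 0.44 at the other days. Without that array the SE of its late against early difference was 0.19, beside 0.21 for HADH.

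The step that held most of the increase of PEPCK and HADH was not the same in every culture. For PEPCK, day 8 minus day 3 was 1.45 in culture 8 and 1.74 in culture 9, but 0.10 in culture 4 and 0.13 in culture 10. In cultures 8 and 9 this first step held 93.7% and 106.8% of the total rise, taken as the late mean minus day 3, whereas in cultures 4 and 10 it held 8.94% and 14.7%. In these latter cultures the PEPCK differences came after day 8, at 0.98 and 0.48 from day 8 to day 15 and 0.03 and 0.53 from day 15 to day 21. For HADH too the first step was larger in cultures 9 and 8, at 1.80 and 1.25, than in cultures 4 and 10, at 0.51 and -0.36, with 85.0%, 64.3%, 30.3% and -45.1% of the total rise. Its second step was positive in all 4 cultures, at 0.98, 0.69, 0.58 and 1.47 in cultures 4, 8, 9 and 10. At the last step the HADH difference was 0.40 in culture 4, 0.01 in culture 8, -0.52 in culture 9 and -0.63 in culture 10. For PEPCK that difference was 0.03 in culture 4, 0.01 in culture 8, -0.53 in culture 9 and 0.53 in culture 10.

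**Figure D2:**
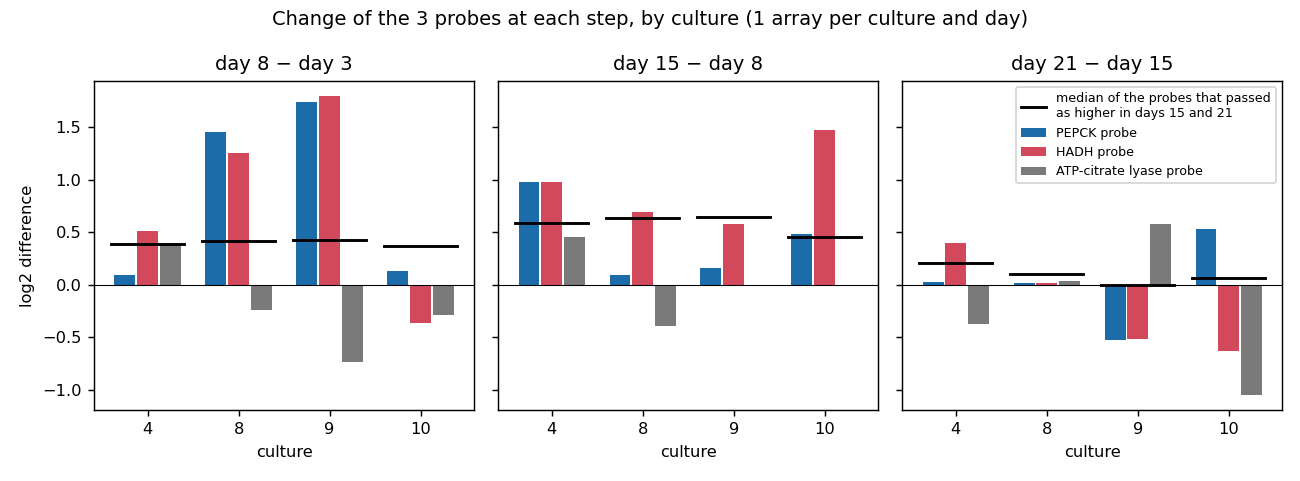
Log2 difference (vertical axis) at the 3 steps of the time course for each culture (horizontal axis); bars are the 3 probes, with 1 array per culture and day, and black lines are the median of the 5312 probes that passed as higher in days 15 and 21. At the first step the PEPCK and HADH bars lie between 1.25 and 1.80 in cultures 8 and 9 and at 0.51 or lower in cultures 4 and 10. The black lines there lie between 0.36 and 0.43, for a set chosen with day 8 counted as early, which favours later rises.

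For reference, the same first step was summarised over the rising probes. Over the 5312 probes that passed as higher in the late days, a set chosen on these arrays that holds PEPCK and HADH themselves, the median of day 8 minus day 3 was 0.39, 0.42, 0.43 and 0.36 in cultures 4, 8, 9 and 10, and the median share present at day 8 was 37.2%, 39.3%, 39.0% and 47.1%. A median over many probes varies less than a single probe, so these values give only the general level. The set was also chosen by a difference that counts day 8 among the early days, which favours probes that rose after day 8. Its medians at the first step and its shares at day 8 are therefore no yardstick for PEPCK and HADH. The steps of 1 culture rest on 1 array per day, so no test of a difference between cultures was made. Of the 2 slides, slide 1 held 3 day 3 arrays and 1 day 8 array, and slide 2 the reverse. Every culture changed slide between days 3 and 8, and culture 10 did so in the same direction as cultures 8 and 9. With slide as a block, day 8 minus day 3 was 0.67 for PEPCK (limma, adjusted p = 0.0785) and 0.79 for HADH (adjusted p = 0.132). Within slide 1 these differences were 0.49 and 0.42, and within slide 2 they were 0.71 and 0.99. The only day 8 array of slide 1 and the only day 3 array of slide 2 were both of culture 4. These within-slide differences therefore set culture 4 against cultures 8, 9 and 10, and slide and culture cannot be told apart in them. The late against early difference was 1.01 and 0.76 for PEPCK and 1.47 and 1.15 for HADH within slides 1 and 2. Each slide held a different set of cultures at each day, so these values also compare arrays of different cultures.

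PEPCK and HADH varied together from array to array. Over the 16 arrays the Pearson correlation of the 2 probes was 0.89, and only 0.167% of the tested probes had a higher correlation with PEPCK. After the mean of each day was subtracted it was 0.63, exceeded by 1.33% of the tested probes. The correlations of ATP-citrate lyase with PEPCK and HADH were -0.36 and -0.09 over the arrays, and -0.29 and 0.24 after subtraction of the day means. These values are descriptions over arrays that share 4 cultures, and each array contributes its own scaling to both probes. The arrays of day 8 were split in this respect: those of cultures 4 and 10 lay near the arrays of day 3 for both probes, and those of cultures 8 and 9 approached the late arrays.

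**Figure D3:**
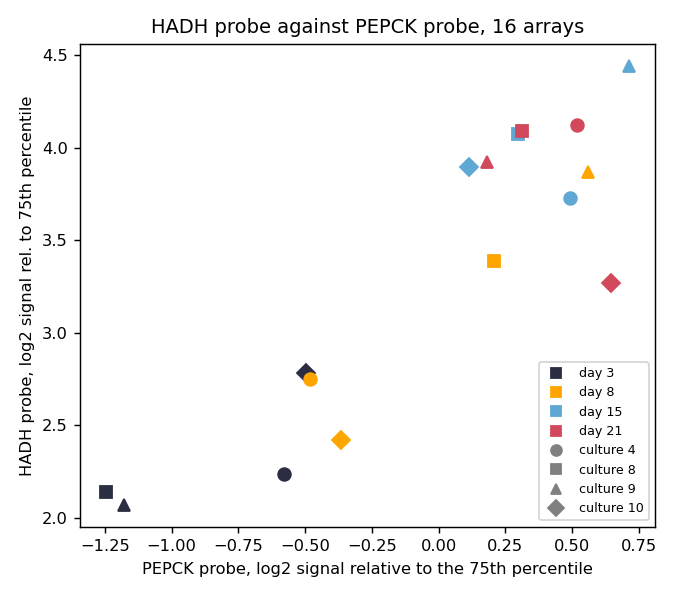
Log2 signal of the HADH probe (vertical axis) against that of the PEPCK probe (horizontal axis), both relative to the 75th percentile, on the 16 arrays; colours are days and symbols are cultures. The arrays of day 3 and those of cultures 4 and 10 at day 8 form the lower left of the cloud, with PEPCK at -0.37 or lower, and all other arrays have PEPCK above 0.

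The size of the late against early difference was compared between the probes within each culture. HADH changed by 0.38 ± 0.15 (SD, n = 4) more than PEPCK, by 1.44 ± 0.38 more than ATP-citrate lyase, and PEPCK by 1.06 ± 0.42 more than ATP-citrate lyase, each in 4 of 4 cultures. In culture 10 the differences from ATP-citrate lyase rest in part on the spot at day 21 that was not well above background. An exact two-sided sign-flip permutation test gave p = 0.125 for each of the 3 pairs, before and after adjustment over them, and 0.125 is the smallest p that 4 cultures allow.

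The tested probes most like each member over the 16 arrays carried identifiers of transcript contigs or reads, with no gene name in the files. The closest to HADH was FP320750.s.om.10 with a correlation of 0.999 and a late against early difference of 1.21, near the 1.24 of HADH itself, followed by FZ8DYKY01BR7C1.s.om.10 at 0.982 and TC98569 at 0.973. Next came TC106481 and BX303577.s.om.10, at 0.965 each. For PEPCK the closest were TC106112 at 0.954, CA362586.s.om.10 at 0.951, BX882860.s.om.10 at 0.941, F6VG15V01DEJTK.s.om.10 at 0.940 and TC101055 at 0.929, with late against early differences from 0.61 to 1.84. ATP-citrate lyase had no probe as close. Its highest correlations ran from 0.864 with TC124329 to 0.882 with TC100155, with F6VG15V02HUKYZ.s.om.10, F6VG15V01CPUD0.s.om.10 and BX869229.s.om.10 between them, and the late against early differences of these 5 probes lay between -0.60 and -0.02.

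Among the other probes with readable names, 12 matched a list of words for lipid or carbohydrate metabolism, and 8 of these were tested. The list took in the nuclear receptors PPAR and RXR beside enzymes and carriers. It was drawn up with earlier results of these data known. In the late against early comparison 3 of the 8 passed as higher and 0 as lower, and their median difference was 0.69, beside -0.03 over all tested probes, of which 12.5% passed as higher and 13.0% as lower. The probes that rose were glucose transporter 1, which carries glucose into the cell, at 1.03 (limma, adjusted p = 0.000514), hexokinase, which phosphorylates it, at 0.87 (adjusted p = 0.00551), and PPARb, a nuclear receptor that controls genes of fatty acid oxidation in mammals, at 0.77 (adjusted p = 0.0115). For probes whose names break off at carnitine and fatty the differences were 0.79 (adjusted p = 0.0597) and 0.51 (adjusted p = 0.0264), and for the retinoid receptor RXR 0.60 (adjusted p = 0.0672). PPARa, another receptor of the same family, gave -0.06 and glucose transporter (Glut2), a low-affinity carrier of glucose in mammals, gave -1.37 (limma, adjusted p = 0.0973).

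At the first step 2 of the 8 passed as higher and 0 as lower, beside 5.15% and 4.87% of all tested probes. From day 3 to day 8 hexokinase rose by 1.65 (limma, adjusted p = 0.00225) and glucose transporter 1 by 0.99 (adjusted p = 0.0148). PEPCK at 0.85 (limma, adjusted p = 0.0288) and HADH at 0.80 (adjusted p = 0.0792) did not pass at this step. The differences between these probes were not tested. The median of the 8 probes was 0.46, beside -0.05 over all tested probes. At day 21 against day 3 the probes glucose transporter 1, hexokinase and PPARb passed as higher at 1.57, 1.41 and 1.18. In that comparison 11.9% of all tested probes passed as higher and 13.6% as lower. None of the 8 passed between days 8 and 15 or between days 15 and 21. Untested for want of signal were glucokinase, glucose-6-phosphatase, which ends gluconeogenesis, elovl5b and PPARg, which were well above background on 1, 3, 1 and 0 of the 16 arrays. The list also did not match the names lipoprotein, LDL and VLDL, which were not counted. A pair of further names was missed by it and added after the names were seen. The probe named for an acyl-coenzyme A enzyme of Salmo salar fell by 1.02 from day 3 to day 8 (limma, adjusted p = 0.0113), with a late against early difference of -0.05, and that named elov12 gave -0.51 between late and early days (adjusted p = 0.406).

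**Figure D4:**
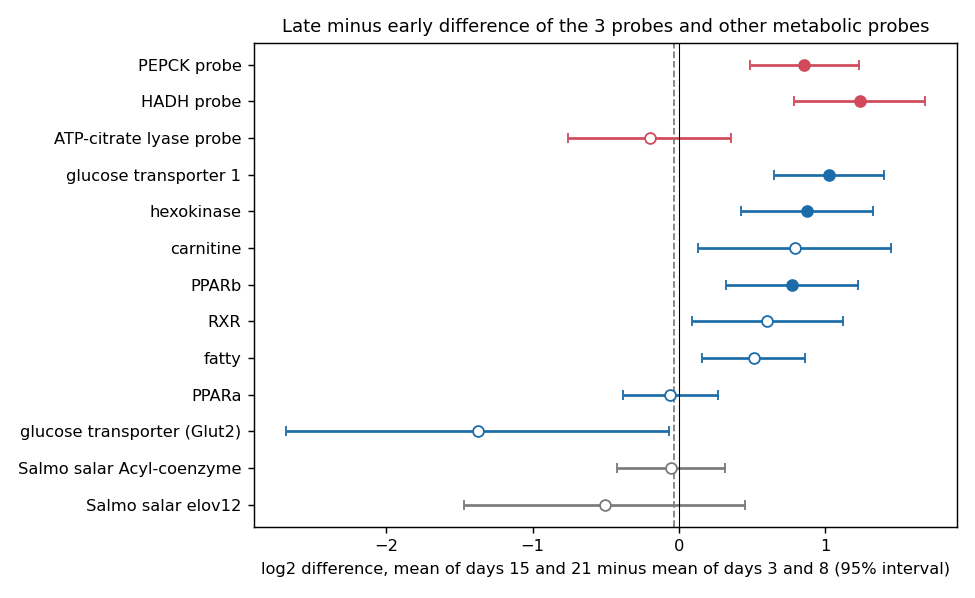
Log2 difference between late (15 and 21) and early days (3 and 8) with its 95% interval (horizontal axis) for the 3 probes (red), the 8 tested probes of the metabolic list (blue) and the pair added later (grey); filled symbols passed at an adjusted p below 0.02 and the dashed line is the median of all tested probes, -0.03. PEPCK, HADH, glucose transporter 1, hexokinase and PPARb are filled, and the interval of ATP-citrate lyase spans 0.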

How the data were processed

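RNA of 4 cultures at 4 days was labelled with Cy3 and hybridised to 16 one-colour Agilent arrays. The authors deposited intensity values extracted with Agilent Feature Extraction 10.7.3.1, whose processed signal is background-subtracted, together with other columns (the well above background and outlier flags). They also deposited a table of log2 values, in which 98.3% to 98.5% of the values of an array equalled its processed signal on that scale within 0.001 after a constant shift, and these served as an alternative. All its columns were matched to samples. No aligner or genome build applies.

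Control spots and outlier spots (6 to 272 per array) were left out, the processed signal was set on the log2 scale against its array's 75th percentile, and limma 3.58.1 in R 4.3.3 fitted 1 mean per day over 16 arrays. Of 60195 probes, 1050 missed a value and were not tested. The number of cultures limits the precision. Confidence intervals (95%) are unadjusted. The fit was also run on simulated data holding a seeded set of changed probes, for late against early and for day 8 against day 3. Those data held no culture effect, and the other steps of the processing were not tested this way. Figures were drawn with matplotlib 3.10.9 and summaries made with pandas 2.3.3, scipy 1.17.1 and numpy 2.4.6 in Python 3.11.15.

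Named genes were the 3 probes, the tested probes of the metabolic list and the 5 probes most correlated with each. The members and lists were chosen with earlier results of these data known. A culture is 1 pool of cells, so culture numbers pair the samples. Once day means were subtracted, arrays of the same culture correlated at a mean of 0.18 (days 3 and 8) to 0.60 (days 15 and 21). Alternatives were culture or slide as a block, normexp (offset 50, on the median signal), quantile normalization, the 75th percentile over bright probes only, other filters on dim probes, the deposited values, the methods' ANOVA and leaving out each culture. Leaving out the array of culture 10 at day 21 was added after seeing the data.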

Additional observations from a re-analysis of the deposited data

Results flagged for a closer look

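In HADH, 1 culture stood apart from the others. The difference between day 21 and day 3 was 0.49 in culture 10 and 1.89, 1.95 and 1.85 in cultures 4, 8 and 9, and the gap between culture 10 and the nearest of the others was 0.933 of the whole range, above the critical value of Dixon's test for 4 values. This was 1 of 27 groups examined, and chance alone passes about 1 in 20. Without culture 10 the difference was 1.90. At the HADH spot, the day 21 array of culture 10 had a local background of 60 units, beside 23 to 37 on the other arrays. Whether this bears on the difference was not tested.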

How the results depend on the processing

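Over all comparisons of the 3 probes 261 alternative values were computed, of which 72 left out 1 culture and 30 lay within 1 slide. They are values of a few settings, not separate analyses, and each late against early difference of PEPCK and HADH had 13 alternatives with a test. The late against early differences of PEPCK and HADH kept their direction and passed under every alternative with a test, at 0.76 to 0.95 and 1.17 to 1.33. With culture as a replicate block they were 0.86 (limma, adjusted p = 0.00265) and 1.24 (adjusted p = 0.000418). The block changed no call of the 3 probes, but moved the number of all probes that passed from 10323 to 15603 over the 4 days, from 2191 to 3807 as higher at day 8 than day 3, and from 499 to 1463 as higher at day 15 than day 8. Without any filter on dim probes the last number was 279. Leaving out 1 culture gave 3310 to 9213 probes that passed over the 4 days. As higher, 606 to 1839 then passed for day 8 against day 3, 7 to 500 for day 15 against day 8, 2480 to 4737 for day 21 against day 3 and 2495 to 4991 for late against early. Late against early, 5312 probes passed as higher and 5524 as lower, a split of 5091 and 3453 with normexp and of 6666 and 4044 with the deposited values.

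For PEPCK, day 8 minus day 3 was 0.49 within slide 1, where the day 8 array was of culture 4 and the day 3 arrays were not. Its near-zero difference between days 15 and 21 was -0.025 with normexp, -0.0013 with the percentile taken over probes bright on every array, -0.0669 without the array of culture 10 at day 21, and -0.16 to 0.19 without 1 culture. Day 21 minus day 3 was 1.20 to 1.35 without 1 culture. For HADH, leaving out 1 culture gave a ratio over the 4 days of 2.86 to 3.82, day 8 minus day 3 of 0.47 to 1.19 and day 21 minus day 3 of 1.41 to 1.90. Without the array of culture 10 at day 21, HADH differed by 0.0111 between days 15 and 21.

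For ATP-citrate lyase the direction was not settled. Day 15 minus day 8 was -0.0232 with the percentile over bright probes, -0.075 with slide as a block and -0.14 to 0.15 without 1 culture. Day 21 minus day 15 was 0.13 with normexp, 0.22 without the array of culture 10 at day 21, 0.61 and -1.01 within slides 1 and 2, and -0.46 to 0.0823 without 1 culture. Day 21 minus day 3 was 0.0526 with normexp and 0.0154 without that array, and late minus early 0.0798 and 0.0132. The cause of these shifts was not tested. This probe could not be tested under the filter for signal on all 16 arrays.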
